A study of Mus musculus with 8 samples.

Results

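The genes described here encode secreted and membrane-bound metalloproteinases that cut the extracellular matrix of the heart, with their inhibitors. Members were all gene symbols of the deposited gene lists that begin with Adamts, or that consist of Mmp or Timp followed by digits and an optional letter. This rule found 50 of the 32285 listed genes, which were 24 Adamts and Adamts-like genes, 22 matrix metalloproteinases (MMPs) and 4 tissue inhibitors of metalloproteinases (TIMPs). Unique molecular identifiers (UMIs), each standing for 1 captured transcript, had been counted per nucleus of the adult mouse heart. The hearts came from both sexes and were either wild type without the transgene (nTg) or carried a transgene (Tg) that expresses cyclin A2, a cell-cycle regulator, constitutively. The promoter that drives the transgene, the ages and the number of animals behind a library are not given in the sources used here, so the spread between libraries may be technical. Of the 8 libraries, 5 had a matrix that fitted their own barcode list and were analysed. Wherever 5 values stand in a row, the first is that of the library labelled nTg female 1, then come the Tg females 1 and 2, and last the Tg males 1 and 2.

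MMPs are zinc-dependent enzymes made as inactive precursors, and between them they cut collagens, gelatin, laminins, proteoglycans and many matrix-bound factors. TIMPs bind the active site of MMPs and of some related enzymes and block it. ADAMTS proteases carry thrombospondin repeats that hold them in the matrix, where some cut large proteoglycans such as versican, some trim procollagens and some act on microfibrils, while ADAMTS-like proteins have the repeats without a catalytic domain. In the heart these proteins are known for their part in valve formation, scar remodelling and the upkeep of the matrix around muscle fibres.

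The 5 libraries held between 25045167 UMIs (Tg female 2) and 38593706 UMIs (Tg female 1). Filtering left 5773, 8817, 6201, 7239 and 6194 nuclei. Ccna2, the gene of the transgene, stood at 444, 0.524, 827, 232 and 143 counts per 1000000 UMIs (CPM) in cardiomyocyte-like nuclei. It was thus high in the library labelled nTg and near 0 in the library labelled Tg female 1, against both labels, and every group below is that of the labels only. Xist was at 1277 to 1469 CPM in the 3 libraries labelled female and at most 8.18 CPM in the 2 labelled male, so Xist matched the sex labels. Pairs of libraries shared 14 to 28 barcodes. The library labelled Tg female 2 stood apart: 11.1% of its gene and cell type pairs with at least 10 CPM were at least 2-fold from the mean of the other 4 libraries and outside their range, against 5.19%, 4.67%, 4.79% and 6.21% for each other library in turn, in the order above. Summed over the 10 fibroblast markers, it had 10792 CPM in fibroblast-like nuclei (16069 to 16870 elsewhere), but 1113 CPM in endothelial-like (330 to 411 elsewhere) and 909 CPM in macrophage-like nuclei (242 to 370 elsewhere).

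Nuclei were clustered without the member genes, and clusters were named from marker lists, so that a name such as fibroblast-like marks resemblance only. Of the 13 named types, 8 had at least 50 nuclei in each library. Levels are CPM of the UMIs summed per library and type, given as mean ± SD over the 5 libraries. Where a type is called the highest or the next, the order is among these 8 types. Of the 31 members described below, 7 had a higher mean in 1 of the 5 smaller types, and those means are given. Levels describe the clusters and were not tested, because the clusters were made from the same nuclei. A level says nothing of enzyme activity, and levels of different genes are not compared, since longer genes yield more nuclear UMIs.

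Of the 50 members, 31 reached a mean of 20 CPM in at least 1 of the 8 types, and Adamts20 reached it only in a smaller one. The other 18 stayed lower in all 13 named types. Among them, 13 of the 50 members had fewer than 100 UMIs over all libraries, including the neutrophil collagenase Mmp8 with 5, the gelatinase Mmp9 with 40, matrilysin Mmp7 with 4 and Adamts13, which cuts von Willebrand factor, with 11. The stromelysin Mmp10 had 0 UMIs, which allows up to 3 by counting error. Fibroblast-like nuclei held the highest level of 10 of the 31 members (32.3%), and 12.6% of all 11378 genes that passed the same minimum were highest there. For 19 of the 31 (61.3%), every library of the highest type lay above every library of the next, which held for 35.5% of those 11378 genes.

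**Figure D1:**
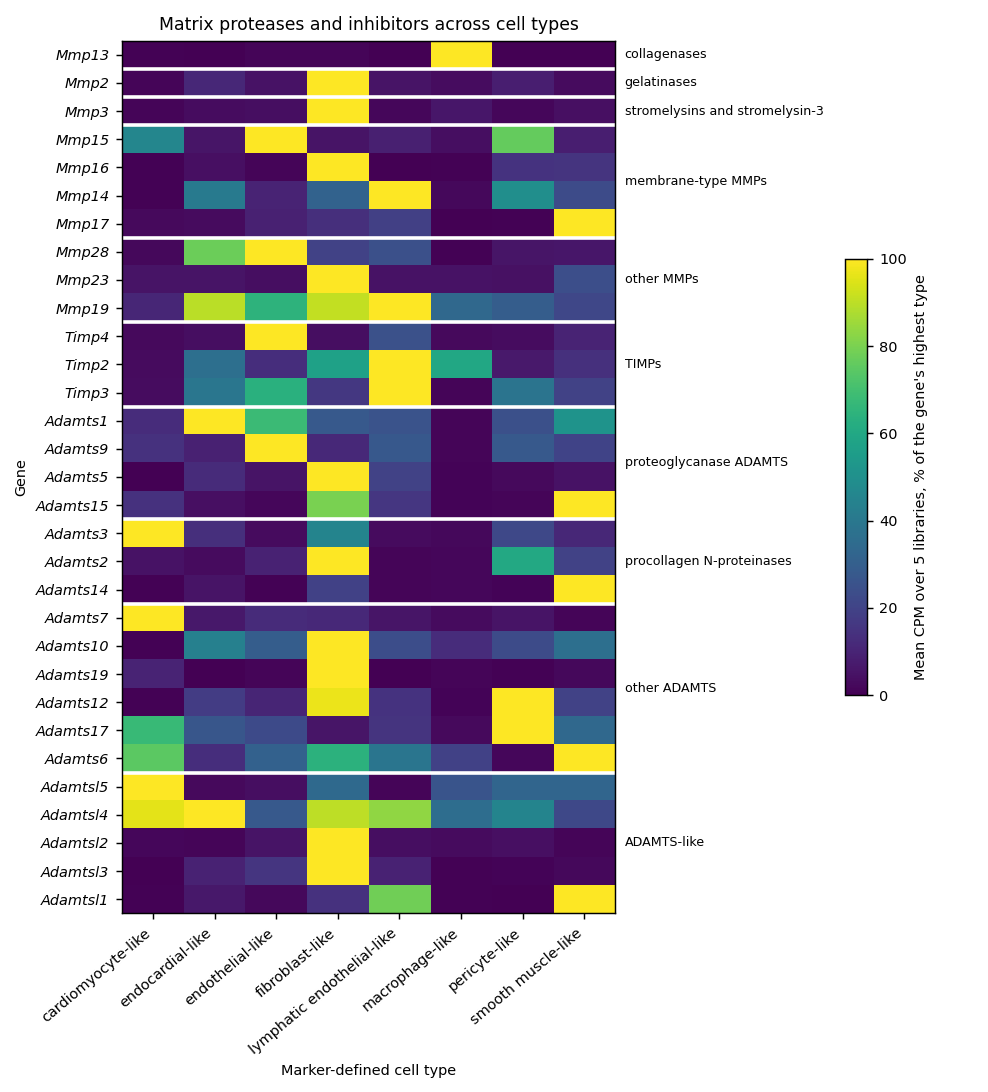
Heat map of the 31 members with a mean of at least 20 CPM in one of 8 cell types. Rows are genes grouped by role, columns are marker-defined types, and colour is the mean CPM over 5 libraries as a percentage of that gene's highest type, so rows can be read across but not against each other. The fibroblast-like column holds the row maximum of 10 genes, the smooth muscle-like column that of 5, and the endothelial-like and lymphatic endothelial-like columns that of 4 each.

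Mmp13, which cuts fibrillar collagen, was the only one of the 3 listed collagenases to reach 20 CPM. In macrophage-like nuclei it stood at 18.0, 42.5, 21.6, 10.1 and 11.5 CPM, from 14 to 47 UMIs per library. Every library lay above the highest fibroblast-like value of 0.647 CPM, and 84 of 2387 macrophage-like nuclei (3.52%) held a UMI. The gelatinase Mmp2 had its highest level in fibroblast-like nuclei, at 230, 243, 161, 214 and 209 CPM. The next type was endocardial-like, at 23.3 CPM (10.1 to 29.8), a 9.10-fold lower mean with no overlap. The stromelysin Mmp3 was also highest in fibroblast-like nuclei, at 14.5, 16.2, 18.1, 54.2 and 21.3 CPM. The library labelled Tg male 1 was the high one, and the other 4 lay close together. The next type for Mmp3 was macrophage-like, at 1.53 CPM.

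Mmp13 and Mmp3 lie with several other MMP genes on mouse chromosome 9 and share 2 sequence elements in front of their start sites. The RefSeq table of promoters (GRCm38.p6, 250 bases before to 50 after each start) matched 35 of the 50 members. The letters TGANTCA, the form of the AP-1 element, were found on either strand in the promoters of 7 members, against 8.97% of all 27025 genes in the table with a promoter that holds them. TATAAA was found on either strand in those of 11 members, against 15.7% of all genes. The 7 members with the AP-1 form were all among these 11, and 1.84% of all genes held both in 1 promoter. The 7 were Mmp1b, Mmp3, Mmp7, Mmp10, Mmp12, Mmp13 and Mmp20. All 7 lie in 1 stretch of chromosome 9 (7272514 to 7699585, GRCm38), and no matched member elsewhere held the AP-1 form. The share thus describes this stretch and not the members as a whole. Of the 7, Mmp3 and Mmp13 were the members that reached 20 CPM in a named type. Their last 100 bases before the start are shown because they carry both elements, in capitals, on chr9:7445722-7445821 and chr9:7272414-7272513, both on the plus strand. A match describes the letters and is not a binding site.
Mmp3: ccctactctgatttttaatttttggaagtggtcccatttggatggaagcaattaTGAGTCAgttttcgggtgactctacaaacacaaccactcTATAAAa
Mmp13: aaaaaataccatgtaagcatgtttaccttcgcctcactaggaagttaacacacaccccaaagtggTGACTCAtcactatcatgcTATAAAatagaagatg

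The first base of the AP-1 form stood 46 bases before the start in Mmp3 and 35 bases before it in Mmp13. The former gene was highest in fibroblast-like and the latter in macrophage-like nuclei.

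Membrane-type MMPs are anchored at the cell surface and differed in where they were highest. Mmp14, which activates the precursor of Mmp2, stood at 100.01, 128, 65.6, 65.9 and 76.2 CPM in lymphatic endothelial-like nuclei, above every pericyte-like library (36.1 to 52.7). Mmp16 was highest in fibroblast-like nuclei, at 219, 227, 136, 185 and 180.0 CPM, and reached a mean of 622 CPM in the few T or NK-like nuclei. Mmp17 was highest in smooth muscle-like nuclei, at 27.7, 20.9, 37.3, 30.6 and 23.6 CPM from 6 to 12 UMIs per library, with a mean of 42.4 CPM in Schwann-like nuclei. Both were separated from the next of the 8 types in every library. Mmp15 was at 38.0, 54.4, 48.5, 34.4 and 28.6 CPM in endothelial-like and at 31.1 CPM (22.0 to 47.7) in pericyte-like nuclei, and these ranges overlapped. Among the remaining MMPs, Mmp23 was highest in fibroblast-like nuclei, at 74.6, 73.0, 52.7, 64.4 and 65.8 CPM, 4.20-fold above the next of the 8 types, and had a mean of 139 CPM in the 105 mesothelial-like nuclei. Mmp28 was at 76.3, 45.2, 38.3, 71.0 and 74.2 CPM in endothelial-like nuclei and overlapped with endocardial-like ones. Both libraries labelled Tg female were the low ones. Mmp19, at 55.3, 37.2, 75.9, 55.3 and 62.6 CPM in lymphatic endothelial-like nuclei, was spread over 4 types whose neighbours overlapped, from lymphatic endothelial-like (mean 57.2 CPM) through fibroblast-like (51.9 CPM) to endocardial-like and endothelial-like.

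The 3 TIMPs above 20 CPM had their highest means of the 8 types in vessel-lining ones. Timp3, the TIMP that stays bound to the matrix, stood at 1974, 2136, 1249, 2370 and 2551 CPM in lymphatic endothelial-like nuclei and at 1302 ± 349 CPM in endothelial-like ones. These ranges overlapped, and the library labelled Tg female 2 was the lowest in both. Its lowest type was macrophage-like, at 32.0 CPM. Timp2, which takes part in the activation of Mmp2 at the cell surface, was at 334, 528, 228, 423 and 460 CPM in lymphatic endothelial-like nuclei, a mean of 395 CPM, and at 237 CPM (182 to 270) in macrophage-like nuclei, which overlapped. Mesothelial-like nuclei had a mean of 467 CPM of Timp2. Timp4, an inhibitor known for its expression in the heart, was endothelial-like at 293, 158, 147, 334 and 380 CPM. All 5 values lay above the highest lymphatic endothelial-like library (86.3 CPM), and cardiomyocyte-like nuclei had the lowest mean, 6.90 CPM. Timp1, the fourth inhibitor, reached 5.43 CPM in fibroblast-like nuclei. Of the 31 members, 7 overlap a gene on the opposite strand, Timp3 and Timp4 among them with Syn3 and Syn2, and reads of such partners can be told apart only where counting used strand, which the sources used here do not state. Timp2 and Adamtsl1 overlap Cep295nl and Sh3gl2 on the same strand, where strand does not separate the reads, so their levels are uncertain to that extent.

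The ADAMTS proteases that cut proteoglycans fell to different types. Adamts5, the versican- and aggrecan-cutting enzyme on chromosome 16 (85856173 to 85901828, GRCm38), stood at 632, 590, 507, 703 and 776 CPM in fibroblast-like nuclei. Its next type, lymphatic endothelial-like, was at 125 CPM (86.3 to 150), a 5.11-fold lower mean with no overlap. A UMI of Adamts5 was found in 60.5% of fibroblast-like nuclei, against 1.40% of the deeper cardiomyocyte-like nuclei. Its neighbour Adamts1 was highest in endocardial-like nuclei, at 169, 153, 88.0, 205 and 167 CPM, and overlapped with endothelial-like ones at 107 CPM (100.2 to 117). Adamts9 was endothelial-like at 354, 480, 452, 413 and 439 CPM, all above the highest pericyte-like library (185 CPM). Adamts20 was found chiefly in Schwann-like nuclei, at 192, 222, 65.0, 178 and 120 CPM, and its highest level among the 8 larger types was 7.53 CPM in fibroblast-like nuclei. Of 181 Schwann-like nuclei, 49 held a UMI of Adamts20 (27.1%, 95% exact Clopper-Pearson interval 20.7% to 34.2%), against 0.610% of 6554 cardiomyocyte-like nuclei. Nuclei with at least 1000 UMIs were also thinned to 1000 UMIs each, and among these nuclei alone the shares were 13.1% and 0.0308%. The median depths before thinning, over all nuclei of each type, were 2282 and 6986 UMIs, and the intervals cover counting error only.

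Adamts15, another versican-cutting protease, was nearly missing from 1 library. In fibroblast-like nuclei it stood at 460, 241, 8.90, 328 and 328 CPM. In smooth muscle-like nuclei it stood at 621, 364, 0, 316 and 405 CPM. The library labelled Tg female 2 was far below the other 4 in both, and it was the lowest of the 5 in all 8 types. Its fibroblast-like level was 38.1-fold below the mean of the others (339 ± 90.2 CPM, n = 4), and its cardiomyocyte-like level of 6.18 CPM was 9.49-fold below theirs (58.6 ± 13.03 CPM). With 3 UMIs as the limit that a count of 0 allows in that library, its smooth muscle-like level was at least 26.7-fold lower and its lymphatic endothelial-like level at least 6.58-fold lower. In pericyte-like and macrophage-like nuclei that limit, 4.92 and 3.60 CPM, lay inside the range of the other libraries, so the rank there is within counting error. The endocardial-like value of Tg female 2 rests on 1 UMI. Over all nuclei, 98 UMIs were counted in the library labelled Tg female 2, and 3907, 3407, 3332 and 2616 in the others. Tg female 2 had the fewest UMIs in all, as given above. The gap was present in each of 6 fibroblast subclusters, where it ran from 1.99 to 70.4 CPM in the library labelled Tg female 2 and from 121 CPM upwards in the others. Without that library, Adamts15 was at 427 ± 134 CPM (n = 4) in smooth muscle-like nuclei.

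**Figure D2:**
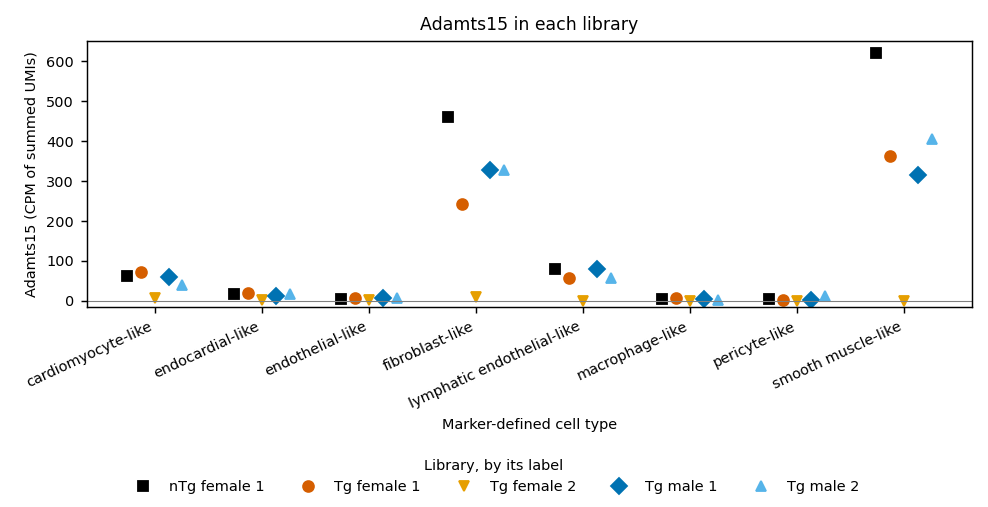
Adamts15 in each library and cell type, as CPM of the summed UMIs on a linear axis; each symbol is 1 library. The symbol of Tg female 2 is the lowest in all 8 types, at 8.90 CPM in fibroblast-like and 0 CPM in smooth muscle-like nuclei. In pericyte-like and macrophage-like nuclei this rank is within counting error.

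The procollagen N-proteinases, which remove the amino-terminal propeptide of fibrillar collagens, were highest in 3 different types. Adamts2 was at 259, 263, 229, 243 and 216 CPM in fibroblast-like nuclei and at 146 CPM (107 to 163) in pericyte-like ones, with no overlap. Adamts3, which also activates a lymphatic growth factor, was cardiomyocyte-like at 60.1, 106, 85.5, 72.8 and 65.5 CPM, above every fibroblast-like library (23.1 to 51.2). Adamts14 was smooth muscle-like at 98.3, 33.1, 64.0, 173 and 118 CPM, from 12 to 51 UMIs per library, and above every fibroblast-like library (13.6 to 26.5).

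Among the other ADAMTS proteases, Adamts10, which binds fibrillin, was highest in fibroblast-like nuclei, at 366, 437, 411, 424 and 404 CPM, the smallest relative spread over libraries among the 10 fibroblast-like members. Adamts7 was cardiomyocyte-like at 62.6, 62.7, 55.6, 57.0 and 66.5 CPM, 8.05-fold above endothelial-like nuclei. Adamts12 had nearly the same mean in pericyte-like nuclei (226 CPM, with 217, 259, 158, 217 and 282) and fibroblast-like nuclei (220.1 CPM, with 192, 303, 218, 171 and 217), and which of them was higher changed when the library labelled Tg male 1 or Tg male 2 was left out. Adamts17 was highest in pericyte-like nuclei, at 62.4, 92.1, 64.0, 55.7 and 57.6 CPM, and overlapped with cardiomyocyte-like ones (44.7 CPM). Adipocyte-like nuclei had a mean of 436 CPM of Adamts12, from 12 nuclei. Adamts6 had its highest mean of the 8 types in smooth muscle-like nuclei, at 267, 308, 64.0, 88.4 and 102 CPM. The first 2 of these values were the high ones, and the range overlapped with that of cardiomyocyte-like nuclei (94.7 to 157). In the 126 T or NK-like nuclei the mean of Adamts6 was 221 CPM.

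ADAMTS-like proteins lack the protease domain, and all 5 listed ones passed 20 CPM. Adamtsl5 was cardiomyocyte-like at 229, 223, 281, 234 and 205 CPM, 2.93-fold above fibroblast-like nuclei with no overlap. Adamtsl3 was fibroblast-like at 388, 684, 504, 405 and 223 CPM, above every endothelial-like library (51.3 to 88.0). Adamtsl2, which binds latent transforming growth factor complexes and fibrillin, was fibroblast-like at 162, 84.1, 71.0, 75.7 and 77.3 CPM, 18.5-fold above the next type. Here the library labelled nTg female 1 was the high one. Adamtsl1 was at 519, 484, 389, 619 and 590.0 CPM in smooth muscle-like and at 407 CPM (236 to 673) in lymphatic endothelial-like nuclei, which overlapped, and both lay above every fibroblast-like library. Its mean in mesothelial-like nuclei was 631 CPM. Adamtsl4, at 83.1, 66.2, 93.2, 80.9 and 98.0 CPM in endocardial-like nuclei and 80.7 CPM (73.5 to 87.4) in cardiomyocyte-like ones, overlapped between neighbours across its top 4 types.

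Fibroblast-like nuclei (12612) were clustered again, and 6 subclusters, F0 to F5, had at least 15 nuclei in each library and did not have all markers of another type raised. F4 had 5 of the 9 smooth muscle markers raised against the other fibroblast-like nuclei, and F0 had 2 of the 9 pericyte markers. F1 was led by Has2, Postn and Cd248, F2 by Fgf10 and C3, F4 by Erbb4 and Wif1, and F5 by Cmah and Dpp4. Of the 23 members with a mean of at least 20 CPM in fibroblast-like nuclei, 14 (60.9%) had a highest subcluster at least 2-fold above the lowest with no overlap of libraries. The same held for 18.7% of the 7807 genes that passed this minimum. The smallest subcluster, F5, with 136 nuclei, had the highest level of Adamts5, at 1708, 1867, 1706, 1794 and 2138 CPM. In F4, with 347 nuclei, Adamts5 was at 180, 121, 98.3, 170 and 124 CPM, and the other 4 subclusters lay between at means of 630 to 688 CPM. The mean of F5 was thus 13.3-fold that of F4, with every library apart. Adamtsl3 followed the same order at its ends, with 1787 ± 434 CPM in F5 and 184 ± 49.99 CPM in F4.

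F4 and F3 were high for other members. The summed smooth muscle markers of F4 stood at 989, 1033, 465, 877 and 880 CPM (214 to 878 in the other 5 subclusters), against 11450 to 15475 CPM in smooth muscle-like nuclei. The gap differed by marker. Myh11, which defines smooth muscle, had a mean of 5.80 CPM in F4 and 4573 CPM in smooth muscle-like nuclei. Mylk had means of 128 and 1275 CPM, Kcnab1 of 263 and 3142 CPM, and Rgs6 of 355 and 645 CPM, in the same order. Rgs6 was higher still in F5, at a mean of 430 CPM. The summed fibroblast markers of F4 were at 6880 to 9742 CPM, the lowest of the 6 subclusters in every library. The summed pericyte markers of F4 stood at 566, 499, 255, 577 and 384 CPM, against 360, 403, 367, 290 and 263 CPM in F0. Pericyte-like nuclei had 10492 to 14166 CPM of them. The part of the smooth muscle and pericyte markers in the F4 values below was not tested. Adamts19 was at 318 ± 123 CPM in F4 and 31.1 ± 19.6 CPM in F0. Adamtsl2 was at 192 ± 81.2 CPM in F3 and 18.6 ± 19.9 CPM in F5. Mmp3 was listed at 0 in all 5 libraries in F5, and at 64.3 ± 32.1 CPM in F3. F5 had 19 to 42 nuclei per library, so its low values of Adamtsl2 and Mmp3 rest on few UMIs, and a 0 there does not show absence. By contrast Mmp2 and Mmp16 varied by 1.46-fold and 1.23-fold between their highest and lowest subclusters, with overlap. Some members that were not highest in fibroblast-like nuclei, chosen after their values were seen, also differed. Adamts12 (741 ± 302 CPM), Adamts6 (366 ± 60.4 CPM) and Timp3 (716 ± 108 CPM) were highest in F4, Timp2 in F5 (668 ± 57.4 CPM) and Adamts3 in F3 (157 ± 75.4 CPM), in each case with every library above every library of the next subcluster. Thus F5 combined high Adamts5, Adamtsl3 and Timp2, while F4, with 5 of 9 smooth muscle markers raised, combined high Adamts12, Adamts6 and Timp3 with low Adamts5. Adamts6 was also the one of these whose highest type was smooth muscle-like, at a mean of 166 CPM (64.0 to 308). Its mean of 366 CPM in F4 (305 to 453) was higher than that, and the ranges overlapped.

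**Figure D3:**
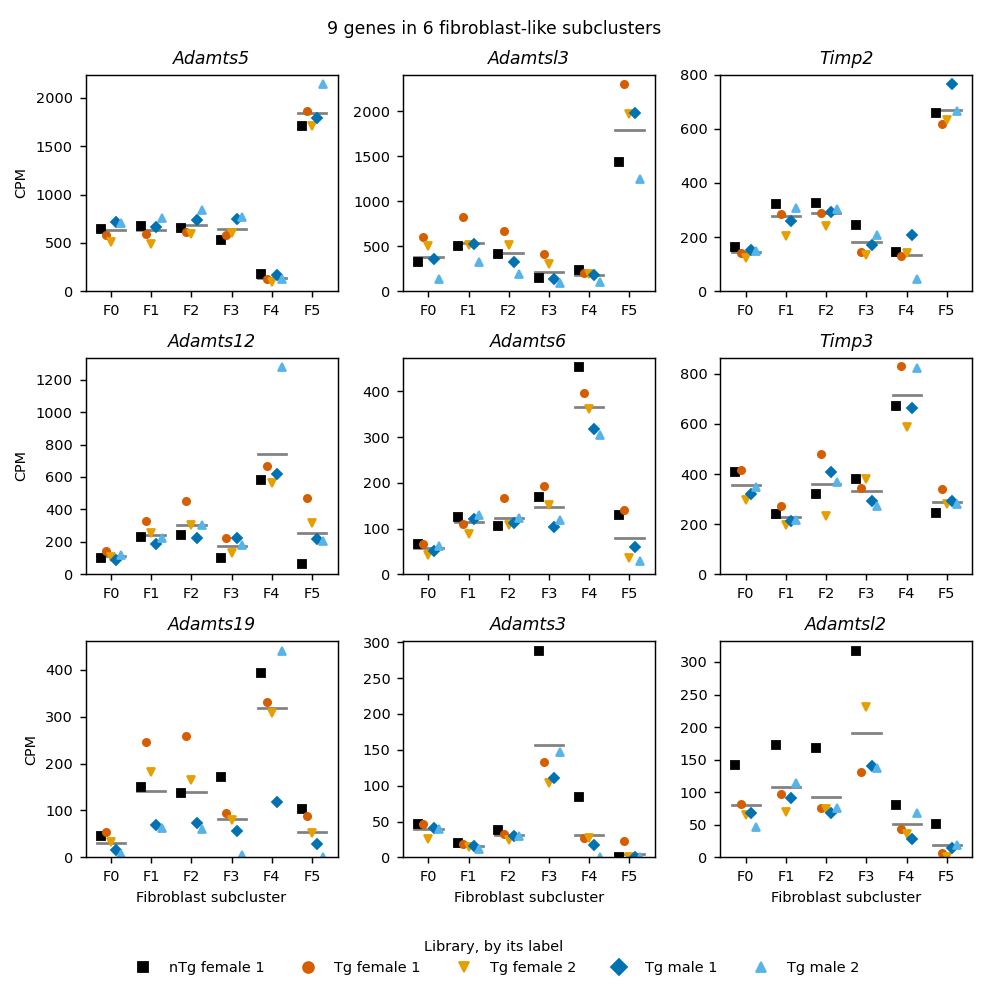
Levels of 9 members in the 6 fibroblast-like subclusters, in CPM on linear axes that start at 0; each symbol is 1 library and the grey line is the mean of 5. Adamts5, Adamtsl3 and Timp2 are highest in F5, Adamts12, Adamts6, Timp3 and Adamts19 in F4, and Adamts3 and Adamtsl2 in F3.

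The study's labels set females against males, and the 4 libraries labelled Tg allowed a test of sex with 2 libraries in each arm. Ccna2 differed between the Tg females (0.524 and 827 CPM in cardiomyocyte-like nuclei) and stood at 232 and 143 CPM in the Tg males. Differences of sex and of transgene level therefore cannot be fully told apart in this contrast. Summed counts were fitted with edgeR's quasi-likelihood test, with the genotype label as a covariate and Benjamini-Hochberg adjustment over all genes of a cell type. Because nTg has 1 library, the covariate takes up its level, and the difference is that of Tg females minus Tg males. That library still enters the filter on low counts and the normalization, and so can change the calls. In smooth muscle-like nuclei 65 of 6619 genes were called, and 7 of 4984 with the 4 Tg libraries alone, where Adamts14 was not called. Of 190 member and cell type pairs tested, 4 passed an adjusted p of 0.05, 1 higher and 3 lower in females. This was 2.11% of the pairs, and 0.315% of all 94401 gene and cell type pairs were called. At an unadjusted p under 0.05 the shares were 41 of 190 (21.6%) and 7.69%. The median log2 difference was -0.05 over the member pairs and 0.01 over all pairs, so the members had no common direction.

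Timp4 (ENSMUSG00000030317, chromosome 6, 115241892 to 115252205) was lower in both libraries labelled Tg female. In endothelial-like nuclei the Tg female libraries had 158 and 147 CPM, and the Tg male libraries 334 and 380 CPM. The groups did not overlap, and the library labelled nTg female 1, at 293 CPM, lay on the male side. Timp4 fell by 1.29 on the log2 scale (SE 0.18, adjusted p = 0.0361 by edgeR), where 0.165% of genes tested in this type were called. Endothelial-like nuclei came from 3 clusters, and Timp4 was lower in both Tg female libraries in each of them: 177 and 161 against 413 and 451 CPM, 205 and 188 against 349 and 501 CPM, and 58.2 and 74.6 against 116 and 114 CPM. The promoter of Timp4 is shown because it is the inhibitor called here. Its last 100 bases lie on chr6:115252206-115252305, minus strand, and hold neither element searched.
Timp4: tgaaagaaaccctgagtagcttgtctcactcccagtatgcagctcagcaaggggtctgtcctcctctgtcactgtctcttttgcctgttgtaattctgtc

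In fibroblast-like nuclei, where 0.573% of the genes tested were called, 2 members passed in opposite directions. Adamts19, a protease with a role in heart valves, was at 174 and 123 CPM for the Tg females, and at 50.4 and 42.0 CPM for the Tg males. The nTg female library, at 120 CPM, lay on the female side just below the lower Tg female. Adamts19 rose by 1.59 on the log2 scale in females (SE 0.22, adjusted p = 0.0228 by edgeR). Subcluster F4, where Adamts19 was highest, made up 3.96%, 3.46%, 2.73%, 2.04% and 1.38% of fibroblast-like nuclei, so its share moved with the result. Within F0, the largest subcluster, the libraries had 45.1, 54.2, 33.0, 16.3 and 6.89 CPM, within F1 they had 150, 246, 183, 68.97 and 62.0 CPM, and within F2 138, 258, 165, 74.1 and 59.6 CPM, so that Tg females and Tg males were also apart inside the 3 largest subclusters. Within F4 the libraries had 393, 332, 308, 119 and 440 CPM and overlapped. The first clustering divided the fibroblast-like nuclei of the libraries unevenly. One cluster, c0, held 35.7% and 56.3% of those of the Tg females against 23.1% and 16.4% of those of the Tg males, and another, c1, held 23.0% and 10.0% against 41.9% and 45.8%. Adamts19 was at 89.4 and 70.6 against 31.3 and 25.4 CPM within c0, and at 85.6 and 50.9 against 28.6 and 15.6 CPM within c1.

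Mmp27, a little-studied metalloproteinase of the chromosome 9 cluster, was the other member. The Tg females had 3.37 and 3.72 CPM and the Tg males 12.2 and 17.8 CPM, with the nTg female library between them at 7.77 CPM. These values rest on 30, 23, 92, 108 and, for the nTg library, 51 UMIs. Mmp27 fell by 2.17 on the log2 scale (SE 0.30, adjusted p = 0.0238 by edgeR). The uneven division of nuclei given for Adamts19 holds here too. Mmp27 was at 3.92 and 2.21 against 5.21 and 9.23 CPM within c0, and at 2.81 and 10.8 against 14.9 and 11.6 CPM within c1. Within F2, where it had the most UMIs, Mmp27 was at 7.14 and 8.01 against 23.0 and 38.2 CPM. The groups did not overlap in any of these, but in c1 they lay close together. Its last 100 bases before the start, on chr9:7571296-7571395, plus strand, are given for comparison with Mmp3 and Mmp13 of the same cluster, and hold neither element.
Mmp27: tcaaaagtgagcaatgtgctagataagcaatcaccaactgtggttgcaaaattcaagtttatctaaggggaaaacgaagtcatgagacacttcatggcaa

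In smooth muscle-like nuclei, where 0.982% of the genes tested were called, Adamts14 stood at 33.1 and 64.0 CPM in females and at 173 and 118 CPM in males, with the nTg female library at 98.3 CPM between them. It fell by 1.71 on the log2 scale (SE 0.40, adjusted p = 0.0122 by edgeR), but from 19, 12, 51 and 30 UMIs, and it lost the call in 6 of 12 alternative fits, DESeq2 among them. Timp4, Mmp27 and Adamts19 each kept the call in 11 of 12. Of the 12, 4 leave out a Tg library, so that 1 sex has 1 library, which is assumed to vary like those of the other sex. The fit that set the 3 female against the 2 male libraries with no genotype covariate called 0 of 167 member pairs (adjusted p from 0.0535 for Adamts19 to 0.806 for Timp4), while 28 had an unadjusted p under 0.05, and DESeq2 with the covariate called 5. In the other 5 types, where 0.0245% (cardiomyocyte-like), 0.247% (endocardial-like), 0.366% (lymphatic endothelial-like), 0.311% (macrophage-like) and 0.181% (pericyte-like) of the genes tested were called, the member with the smallest p was not called. They were Adamts1 in cardiomyocyte-like (log2 difference -0.97, adjusted p = 0.315 by edgeR), Timp3 in endocardial-like (-0.71, 0.632), Adamtsl1 in lymphatic endothelial-like (0.71, 0.558), Mmp13 in macrophage-like (1.58, 0.164) and Adamts9 in pericyte-like nuclei (-0.85, 0.298). At an unadjusted p under 0.05 these types had 5 of 32 members (15.6%, against 6.87% of all genes tested), 4 of 23 (17.4% against 7.15%), 2 of 18 (11.1% against 5.92%), 3 of 13 (23.1% against 8.67%) and 7 of 22 (31.8% against 6.53%), in the same order. DESeq2 called Adamts19 in cardiomyocyte-like nuclei, which stood at 23.0, 15.9, 8.62, 3.21 and 0.835 CPM.

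**Figure D4:**
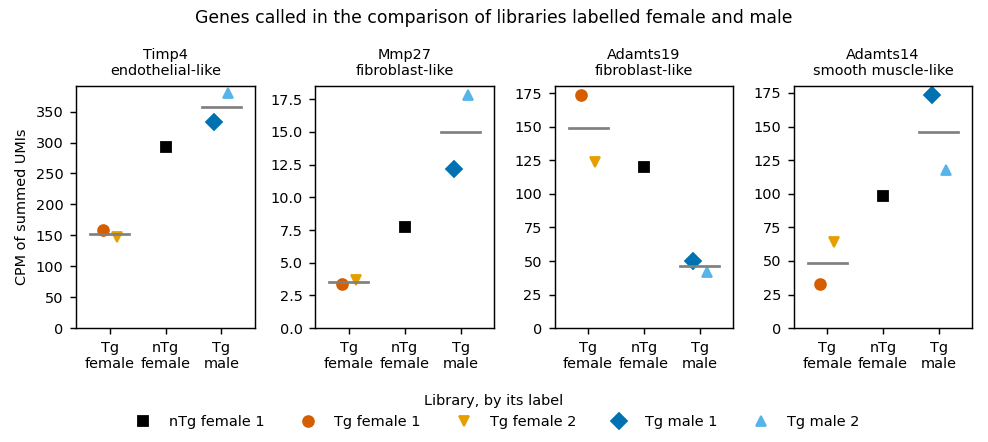
The 4 members called in the edgeR comparison of libraries labelled Tg female and Tg male, as CPM in the cell type of the call on linear axes that start at 0; each symbol is 1 library and the grey line is the mean of 2. The nTg female library was not part of the contrast and lies between the groups for Timp4, Mmp27 and Adamts14 and just below the Tg female range for Adamts19.

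Other matrix genes were read from 3 lists of 68 further proteases, inhibitors and substrates, of which 63 were tested in at least 1 type. Of their 345 pairs, 3 were higher and 2 lower in females, with a median log2 difference of 0.21 (0.01 over all pairs). The called share was 1.45%, against 0.315% of all pairs, and 64 pairs (18.6%) had an unadjusted p under 0.05, against 7.69%. Spock2, a matrix proteoglycan, was lower in females in endocardial-like nuclei (40.1 and 20.7 against 154 and 176 CPM, with 63.0 CPM in the nTg library) and in endothelial-like nuclei (34.8 and 20.8 against 103 and 122 CPM, with 101 CPM in the nTg library). Pzp, a broad protease inhibitor, was higher in Tg females in fibroblast-like nuclei (9.53 and 11.0 against 2.25 and 2.31 CPM, with 3.66 CPM in the nTg library). The surface protease Adam19 was higher in lymphatic endothelial-like nuclei (108 and 114 against 36.1 and 38.1 CPM, with 65.8 CPM in the nTg library). Vcan, the substrate of several ADAMTS proteases, passed in smooth muscle-like nuclei on 36 and 3 UMIs in the Tg female libraries. It had 0 UMIs in the Tg male libraries and in the nTg female library. For Pzp, Adam19 and Vcan, and for Spock2 in endothelial-like nuclei, the nTg female library lay on the male side. For Spock2 in endocardial-like nuclei it lay on the female side.

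With 1 library labelled nTg there was no test of genotype, and the contrast with that library is a description. Of 146 member and cell type pairs with at least 10 CPM, 14 (9.59%) in the nTg library were at least 2-fold from the mean of the 4 Tg libraries and outside their range, 6 higher and 8 lower. Over all genes the share was 5.19%, and the members' share was 7.84% to 21.3% when each Tg library was set against the rest in turn. Adamtsl2 in fibroblast-like nuclei was 162 CPM, against 77.0 ± 5.43 CPM in the Tg libraries (71.0 to 84.1). Adamtsl1 in endothelial-like nuclei was 2.24 CPM, against 13.4 ± 5.16 CPM (9.43 to 20.8). Adamts15 was higher in fibroblast-like and smooth muscle-like nuclei, where the mean of the others holds the low value of Tg female 2. Of the remaining pairs, Adamts19 in cardiomyocyte-like, Mmp17 in lymphatic endothelial-like and Adamts1 in smooth muscle-like nuclei were higher. Lower were Adamts2 in cardiomyocyte-like, Adamtsl1 and Adamts3 in endocardial-like, Mmp2 in lymphatic endothelial-like, and Adamts17, Mmp19 and Mmp14 in smooth muscle-like nuclei. Some of these nTg values were no higher than the level of 3 UMIs in that library and type, near the counting limit. They were Adamts3 (4.02 CPM), Mmp2 (2.63 CPM, against 7.90 CPM for 3 UMIs), and Adamts17, Mmp19 and Mmp14 (6.15, 3.07 and 6.15 CPM, against 9.22 CPM).

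The library labelled Tg female 2 was apart for 35 of 164 member pairs (21.3%), 23 higher and 12 lower, where 11.1% of all pairs were apart. Several of the higher pairs were members that were highest in fibroblast-like nuclei but read here in other types. Mmp2 stood at 21.6 CPM in its macrophage-like nuclei (3.29 to 4.53 in the other libraries), at 21.3 CPM in endothelial-like (3.94 to 9.47) and at 27.6 CPM in lymphatic endothelial-like nuclei (2.63 to 12.8). Adamts2 stood at 17.3 CPM in its lymphatic endothelial-like nuclei and at 0 in the other 4. There 3 UMIs stand for 10.4 CPM in Tg female 2 and for 5.58 to 8.16 CPM in the other libraries. The lymphatic endothelial-like values thus rest on few UMIs, and a 0 does not show absence. The summed fibroblast markers of Tg female 2 were raised in the types just named. They stood at 904 CPM in lymphatic endothelial-like nuclei (185 to 279 elsewhere) and as given above in the other types. The part of these markers in these values was not tested. Mmp2 was also high in its pericyte-like nuclei, at 41.0 CPM (3.14 to 21.8 elsewhere). There the fibroblast markers stood at 3311 CPM, against 3501 to 4196 CPM in the other libraries. Pericyte-like nuclei thus held much of these markers in every library, and Tg female 2 was also lower for them in fibroblast-like nuclei. The pericyte-like sum therefore cannot show whether the markers were raised there as in the other types, and their part was not tested.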

How the data were processed

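The series holds 10x single-nucleus libraries of adult mouse heart. Per the file headers, the deposited matrices hold UMI counts from Cell Ranger 7.0.0, with no further normalization by the authors, and the submitters' processing notes name mm10. Use of strand and introns is not given in the sources used here. The matrices of nTg female 2, nTg male 1 and nTg male 2 repeated those of Tg female 2, Tg male 1 and Tg male 2 and differed in size from their own barcode lists, and were not used.

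Nuclei with at least 200 genes and under 5% mitochondrial UMIs were kept, and scrublet doublets (7.63% to 11.4%) removed. In Tg female 2 the automatic threshold called 0%, and the median of the other thresholds was used. Clustering used scanpy 1.11.5 and leidenalg 0.10.2 (2000 variable genes, 30 components, 15 neighbours, resolution 1, and 0.5 for fibroblasts), without members, Ccna2 and sex-linked genes. A cluster was named when at least 3 listed markers were raised and led the next type by 0.5 on the log2 scale, unless its leading genes or depth went against the name. Cluster c18, with 8 of 10 macrophage markers but cell-cycle leading genes, stayed unnamed. CPM are per 1000000 summed UMIs. Sums were tested with edgeR 4.0.16 (filterByExpr, TMM), with DESeq2 1.42.0 as an alternative. On simulated fibroblast-like sums of 15844 genes, edgeR recovered 36.0% of 2-fold and 87.5% of 4-fold changes. Coordinates are those of GENCODE vM21 on GRCm38. Values in all libraries were given for members with at least 20 CPM. In the sex fit, called members and the smallest p of each type were named, and of the nTg library the members apart. Members, lists and rules were chosen with earlier results of these data known.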

Additional observations from a re-analysis of the deposited data

Results flagged for a closer look

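For 2 members named in the comparison of sexes, both libraries labelled Tg female lay on one side of both labelled Tg male in one cell type and on the other side in another. The difference between the types was not tested. Adamts9 stood at 88.8 and 87.0 CPM in females against 134 and 185 CPM in males in pericyte-like nuclei, and at 480 and 452 CPM against 413 and 439 CPM in endothelial-like nuclei, where the log2 difference was 0.063. Adamtsl1 stood at 420 and 673 CPM in females against 236 and 416 CPM in males in lymphatic endothelial-like nuclei, and at 484 and 389 CPM against 619 and 590 CPM in smooth muscle-like nuclei, where the log2 difference was -0.43.

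Mmp12, the macrophage elastase, was under 20 CPM in every named type but reached 76.7 CPM, pooled over the libraries, in an unnamed cluster of 206 nuclei, where 25 nuclei held 72 UMIs. By library it stood there at 53.5, 184, 70.5, 54.6 and 75.8 CPM, and macrophage-like nuclei had 2.92 CPM pooled over the libraries.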

How the results depend on the processing

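The number of member pairs called by sex was 4 in the main fit, 0 with sex alone, 11 with a replicate block and 17 with no filter on low counts, and 3 to 21 when each library was left out in turn. All genes gave 297 calls, 169 with the 4 Tg libraries, 61 with sex alone, 1177 with the replicate block, 507 with DESeq2, 1945 with no filter, 144 with at least 10 UMIs in every library and 169 to 2780 with a library left out. Leaving out the 1 nTg library is the same fit as the 4 Tg libraries. The highest counts, 21 and 2780, came without the library labelled Tg female 1, where 3 of the 4 main pairs were kept. Without Tg female 2 there were 10, with all 4 kept. The cause was not tested. The replicate numbers are shared by 2 pairs of libraries, whose deviations correlated at -0.02 to 0.11 by type, so the block rests on a number alone. No named member changed sign under any setting.

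The nTg library was apart for 14 member pairs, 23 at 1.5-fold, 8 with a minimum of 20 CPM and 12 to 21 with a Tg library left out. The number of members above 20 CPM and the 14 members that varied between fibroblast subclusters (13 and 14 at resolutions 0.3 and 0.8) stayed within 1.5 times under every planned setting. The cell type of the highest mean was the same for 29 to 31 of 31 members under 8 settings, with Adamts12 and Adamtsl4 changing. Depth limits the 13 members under 100 UMIs, the smooth muscle-like sums, the low values in subcluster F5 and all small types, and 2 libraries per sex limit the test.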

Other observations

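Of the 13 other listed genes within 500 kb of Adamts15 on chromosome 9, the library labelled Tg female 2 was the lowest of the 5 for 6, the highest for 1 and within the range for 6. The share of all genes for which this library was the lowest is not given here, so these counts have no background. As given above, it was apart for 11.1% of all gene and cell type pairs. Over all nuclei Adamts15 was 22.9-fold lower there than the mean of the other 4 libraries (5.57 against 127 ± 26.9 CPM). Its neighbour Adamts8 was 1.63-fold lower, on 16 UMIs against 29 to 50. In endocardial-like nuclei Adamts8 was at 0, where 3 UMIs would be 7.76 CPM and the other libraries had 10.1 to 21.5 CPM. It was also at 0 in smooth muscle-like nuclei, where 3 UMIs would be 16.0 CPM. The other libraries had 6.80 to 15.7 CPM there, so that 0 is within counting error. Aplp2 stood at 181 CPM against 222 to 249 CPM and Zbtb44 at 61.5 CPM against 70.1 to 73.5 CPM, while Snx19, Prdm10 and Nfrkb lay within the range of the other libraries. Of the low-count neighbours, Gm47716 was 5.71-fold lower, at 4 UMIs against 28 to 45, Gm29724 1.44-fold and St14 1.39-fold, on 41 and 8 UMIs.

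Mmp16, a fibroblast-like gene among the larger types, was also counted in T or NK-like nuclei, at 1925, 0, 46.2, 0 and 1142 CPM. It rested on 140 UMIs in 17 of 126 nuclei, and 1 nucleus of the library labelled nTg female 1 held 49 of them. Adamtsl1 was at 420, 1393, 492, 91.6 and 761 CPM in mesothelial-like nuclei, of which the libraries had 7, 28, 19, 3 and 48.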
